A study of Mus musculus with 48 samples.

Results

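Lymphatic endothelial cells (LECs) and blood endothelial cells (BECs) that were sorted from the same hearts of 4 control mice were compared by RNA sequencing. The members are the 8 libraries, of 48 in the series, whose labels give heart tissue, the control treatment and one of these cell types. There were 4 LEC and 4 BEC libraries, and each LEC library is paired by its animal number with the BEC library of the same mouse. The controls were male Prox1-eGFP mice of the C57BL/6 strain that were infused with bovine serum albumin from a minipump for 5 to 6 weeks. Mouse 1 (9 months old) and mouse 9 (16 months) were sequenced in batch 1, and mouse 5 (8 months) and mouse 11 (16 months) in batch 2. In these mice an IRES-eGFP cassette was inserted behind the coding sequence of the Prox1 gene, so that cells with an active Prox1 gene fluoresce. Live CD31-positive, CD45.2-negative cells of the enzymatically digested heart, after lysis of red cells, were sorted as LECs when eGFP was positive and as BECs when it was negative. The treated mice, which enter as a second set of animals near the end, carried the same reporter and received angiotensin II alone (angII, 5 mice) or with VEGFCc156s, a VEGF-C variant that acts on VEGFR3 (angII+VEGFC, 3 mice). The angII mice were 8 to 16 months old, with 3 in batch 1 and 2 in batch 2. The angII+VEGFC mice were 8 to 15 months old, with 1 in batch 1 and 2 in batch 2.

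Lymphatic capillaries take up interstitial fluid, proteins and immune cells from the heart and return them to the blood, whereas blood capillaries deliver oxygen and fatty acids to the cardiomyocytes. Both arise in part from a shared venous source in the embryo. Lymphatic identity is set by the transcription factor Prox1, and the growth of lymphatic vessels depends on the ligand VEGF-C and its receptor VEGFR3, which is encoded by Flt4. LECs guide dendritic cells by the chemokine Ccl21 and are joined by loose, button-like junctions in the capillaries, and collecting vessels carry valves that form under the control of Foxc2.

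Values are in TPM, a transcript abundance that is normalized for transcript length and for the total of the library. The number of reads behind each library is unknown, since the TPM of each library sum to nearly the same total. Genes at 1 TPM or more numbered 16131 to 24086 in LECs and 15423 to 21913 in BECs. BEC libraries resembled each other closely (Pearson r = 0.942 to 0.971 over 18382 genes), while LEC libraries were more varied (r = 0.744 to 0.922), which describes genes within libraries and carries no test. The labelled cell types were present. The marker Lyve1 was at 1090, 1700, 1080 and 1500 TPM in the LECs and at 39.2, 81.1, 37.1 and 49.4 TPM in the BECs of mice 1, 5, 9 and 11. Prox1 itself, whose locus drives the sort, was at 131 to 205 TPM in LECs and at 2.64 to 5.7 TPM in BECs. Its difference is what the gate used and is not a finding. Nos3, the endothelial nitric oxide synthase, was at 264 to 350 TPM in BECs and also at 92.7 to 234 TPM in LECs, so it separated the populations in degree, not by presence.

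Transcripts of other cells were found in both populations and differed between libraries. The summed level of 5 red cell markers (haemoglobins and Alas2) was 2190 and 2080 TPM in the LECs of mice 1 and 9, from batch 1, but 9.92 and 6.98 TPM in the LECs of mice 5 and 11, from batch 2. In BECs it was 5220 to 7980 TPM in both batches. The 8 pericyte and smooth muscle markers summed to 317 to 395 TPM in BECs and to 46.8 to 152 TPM in the LECs of 3 mice, whereas the LECs of mouse 9 reached 392 TPM with Acta2 at 152 TPM. The BECs of mouse 1 held 4050 TPM of 7 fibroblast markers, against 554 to 969 TPM in the other BECs and 868 to 1400 TPM in LECs. The 4 platelet markers summed to 69.9 to 166 TPM in BECs and 8.82 to 31.6 TPM in LECs. The 11 leukocyte markers stayed at 46.2 TPM or less in BECs and at 9.84 to 99.1 TPM in LECs, with Ptprc, which encodes the gated CD45, at 12.6 TPM or less. Cardiomyocyte markers (12 genes) summed to 233 to 571 TPM and were higher in LECs in 2 of 4 mice. The mesothelial markers Msln and Upk3b were below 1 TPM in the 8 libraries, while Wt1 was at 14.1 to 26.1 TPM in BECs. None of these sums could reach a p under 0.05 in an exact sign-flip test on 4 pairs, whose smallest p is 1 in 8, and their part in the results was not tested.

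**Figure D1:**
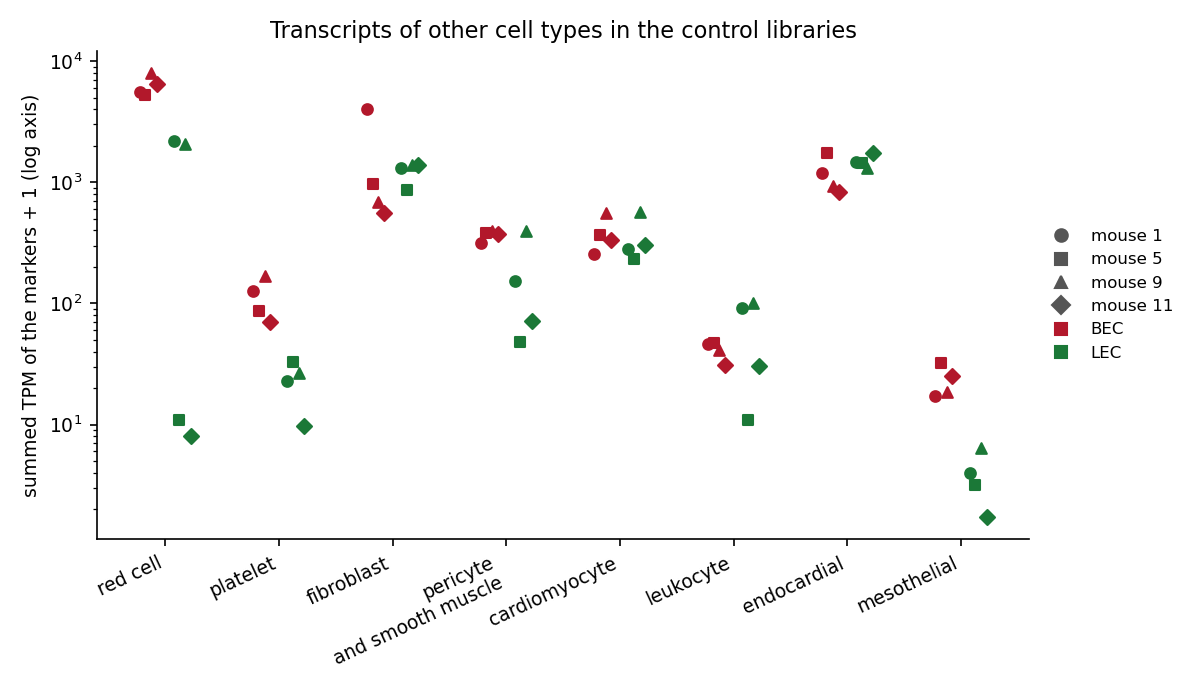
Summed TPM of marker genes of other cell types plus 1, on a log axis, in each library of the 4 control mice (symbols) for BECs (red) and LECs (green). Red cell transcripts were at 2080 and 2190 TPM in the LECs of mice 9 and 1 and under 10 TPM in those of mice 5 and 11, and the BECs of mouse 1 held the highest fibroblast sum at 4050 TPM.

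The transcriptomes of LECs and BECs differed widely. Of 18382 genes tested, 1956 (10.6%) passed an adjusted p under 0.05 in a limma model with the mouse as block, 779 of them (4.24%) higher in LECs and 1177 (6.4%) higher in BECs. Differences are given as the log2 difference of LEC minus BEC on the log2(TPM + 1) scale with their standard error (SE), so that negative values mean higher levels in BECs. Among the genes called, 1539 differed by more than 1 log2 unit and 276 by more than 3, and for 1770 the 4 LEC and the 4 BEC values did not overlap. Over all genes tested the values did not overlap for 2975 (16.2%), and the median log2 difference was 0.046. Within the batch 2 mice alone 2282 of 18502 genes tested were called, and within the batch 1 mice alone 1003 of 21662. These fits held 2 mice each, required 1 TPM in only 2 libraries and were added after the data were seen. The cause of the gap between them was not tested. Without mouse 5 the count was 1202. With bulk RNA, fewer cells of a kind and less RNA per cell cannot be told apart.

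**Figure D2:**
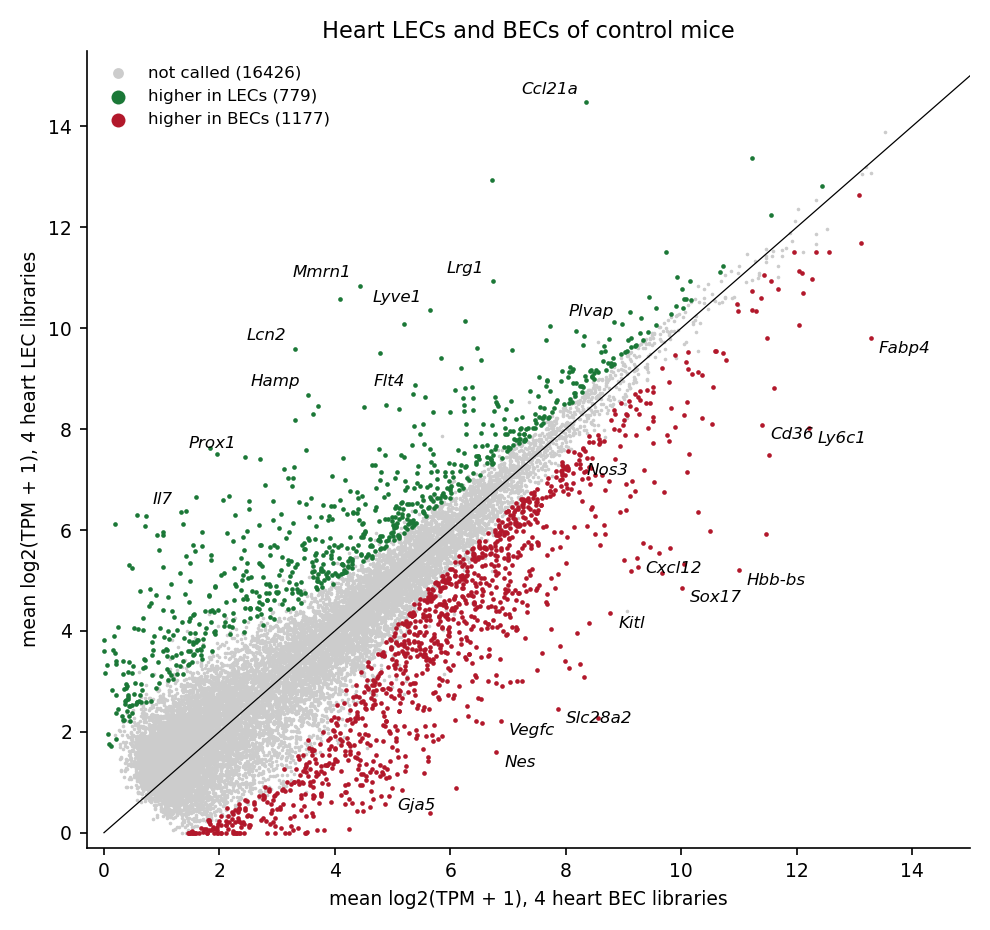
Mean log2(TPM + 1) of each of the 18382 genes tested in the 4 BEC libraries (x) and the 4 LEC libraries (y) of control mice, with the line of equality. The 779 genes called higher in LECs (green) lie above the line, led by Ccl21a in abundance, and the 1177 called higher in BECs (red) lie below it, with Fabp4 the most abundant of those labelled.

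Lymphatic markers marked the LECs by large margins. Of 13 lymphatic markers, 11 were called higher in LECs, against 4.24% of all genes tested, and 0 in BECs, with a median log2 difference of 4.08 over the 13. The chemokine Ccl21a was the most abundant transcript of the LECs. It was at 19600, 27200, 20400 and 25200 TPM in the LECs of mice 1, 5, 9 and 11, and at 324, 164, 384 and 563 TPM in the BECs (log2 difference 6.12 ± 0.25, adjusted p = 1.74e-07). No BEC library came near the lowest LEC library. Mmrn1, which encodes the secreted protein multimerin 1, was at 1490 to 2210 TPM in LECs and 12.1 to 35.9 TPM in BECs (6.41 ± 0.23, adjusted p = 7.99e-08). Lyve1, the hyaluronan receptor, differed by 4.71 ± 0.14 (adjusted p = 3.27e-08). Podoplanin (Pdpn), a membrane glycoprotein of lymphatic vessels, reached 41.2 to 83.0 TPM against 1.27 to 5.67 TPM. Fgl2, Clca3a1, Reln, the mannose receptor gene Mrc1 and the scavenger receptor gene Stab1 were also called, with log2 differences of 4.87, 5.06, 4.08, 3.72 and 1.83. The exceptions were Nrp2, the co-receptor for VEGF-C, which was at 76.5 to 136 TPM in BECs and 81.4 to 116 TPM in LECs (log2 difference -0.05 ± 0.16, adjusted p = 0.891), and Stab2, which was low (5.36 ± 6.14 TPM in LECs) and did not pass the test (adjusted p = 0.141). The difference of Itga9, an integrin subunit of lymphatic valves, was 0.56 in batch 1 and 3.16 in batch 2, and its call was lost without mouse 5, 9 or 11 (adjusted p = 0.154, 0.0535 and 0.138).

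Ccl21a has near-identical copies on chromosome 4, and reads can be shared among them. In the GRCm38 annotation Ccl21a lies at chr4:42772860-42773993 on the minus strand, and the copies Gm21541 and Gm13304 lie at chr4:41903610-41904743 and chr4:42114817-42115917. Over the aligned transcript the identity to Ccl21a is 99.3% for Gm21541, with 6 mismatches in 870 bases, and 99.4% for Gm13304, with 5 mismatches in 837 bases. Counted from 1 at the 5′ end of the Ccl21a transcript, whose coding sequence begins at base 76, both copies carry T159A and C269T within the coding sequence. Positions 150 to 279 of the transcripts are printed because they hold both coding mismatches, which are set in capitals, and 128 identical bases.
Ccl21a: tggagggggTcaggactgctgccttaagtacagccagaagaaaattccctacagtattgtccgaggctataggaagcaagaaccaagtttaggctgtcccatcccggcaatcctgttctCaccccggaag
Gm21541: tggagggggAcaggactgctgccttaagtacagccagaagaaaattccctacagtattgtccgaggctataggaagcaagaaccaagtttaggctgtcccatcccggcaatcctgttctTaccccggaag
Gm13304: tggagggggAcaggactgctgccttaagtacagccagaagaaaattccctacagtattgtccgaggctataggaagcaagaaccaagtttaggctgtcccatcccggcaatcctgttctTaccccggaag
Reads that cover none of the mismatched bases can be assigned to Ccl21a or to a copy, so the split of TPM between these genes is uncertain. Gm21541 was listed at 7230 to 8520 TPM in LECs and 75.2 to 162 TPM in BECs, and Gm13304 at 1030 to 1870 TPM and 0 to 72.0 TPM. The annotated copies Ccl21b and Gm10591, each with 2 mismatches to Ccl21a in 402 aligned bases, were listed at 0 in the 8 libraries. The same uncertainty holds for them. Added up, Ccl21a and its copies made up 2.79%, 3.76%, 2.94% and 3.56% of the LEC totals of mice 1, 5, 9 and 11, and 0.0239% to 0.0797% of the BEC totals.

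Transcription factors of the lymphatic program were called higher in LECs for 6 of 10 members and in BECs for 0. Prox1, on which the sort rests, is 1 of the 6, and without it the count was 5 of 9, against 4.24% of all genes tested. Tbx1, a T-box factor, showed the largest difference of the list. It was at 98.6, 276, 118 and 334 TPM in the LECs and 4.38, 1.95, 2.77 and 2.77 TPM in the BECs of mice 1, 5, 9 and 11 (log2 difference 5.56 ± 0.39, adjusted p = 7.84e-06). Foxc2, the valve factor, was at 51.8 to 231 TPM in LECs and 10.6 to 26.2 TPM in BECs (2.82 ± 0.40). For both genes the LECs of the batch 1 mice had the lowest levels, still above the BECs. Nr2f2 (COUP-TFII), which is shared with veins, and Nfatc1 were called with differences of 1.76 ± 0.27 and 1.47 ± 0.17. Hhex had a small difference (0.69 ± 0.18, adjusted p = 0.0354), which was lost without mouse 5, 9 or 11 (adjusted p = 0.182, 0.0893 and 0.105). Sox18, which acts upstream of Prox1 in the embryo, was abundant in both populations (588 ± 172 TPM in LECs and 710 ± 197 TPM in BECs, SD, n = 4) and did not pass the test (adjusted p = 0.224).

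Genes of blood endothelium showed the opposite pattern with one exception. Of 12 blood endothelial markers, 10 were called higher in BECs, 1 higher in LECs and 1 not at all, against 6.4% of all genes tested called higher in BECs, with a median log2 difference of -2.24. Sox17, a factor of arterial endothelium, was at 1010, 985, 924 and 1230 TPM in the BECs and 132, 23.2, 1.6 and 84.3 TPM in the LECs of mice 1, 5, 9 and 11 (log2 difference -5.15 ± 0.66, adjusted p = 0.000422). Its level in LECs varied more than that in BECs. The surface antigen genes Ly6c1, Ly6a and Cd34 differed by -4.20 ± 0.26, -4.04 ± 0.25 and -2.59 ± 0.14, and the fatty acid receptor gene Cd36 by -3.32 ± 0.20. Vwf, the clotting factor carrier of endothelial storage granules, was at 167 to 331 TPM in BECs and 39.0 to 76.5 TPM in LECs (-1.83 ± 0.22). Podxl, a sialomucin of the luminal surface, differed by -1.20 ± 0.15. Nos3 showed the smallest difference of those called (-0.84 ± 0.18, adjusted p = 0.0105). Plvap, which forms the diaphragms of fenestrae and caveolae, ran the other way. It was at 1050, 1120, 854 and 1360 TPM in the LECs and 508, 877, 401 and 358 TPM in the BECs, higher in the LECs of each mouse (1.10 ± 0.20, adjusted p = 0.00447), although the lowest LEC value was under the highest BEC value. Emcn was high in both (675 ± 95.2 and 843 ± 97.9 TPM, SD, n = 4) and was not called (adjusted p = 0.115).

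Genes that both endothelia use were on the whole higher in BECs. Of 13 pan-endothelial genes, 9 were called higher in BECs and 0 in LECs (6.4% and 4.24% over all genes), with a median log2 difference of -0.78. Most of the differences were modest, such as those of the adherens junction cadherin Cdh5 (-1.19 ± 0.16), of Pecam1 (-0.78 ± 0.12), which encodes the CD31 that both gates required, and of the factors Ets1 (-1.19 ± 0.17) and Fli1 (-0.90 ± 0.17). Esam, an adhesion molecule of tight junctions, stood apart. It was at 955 to 1330 TPM in BECs and 116 to 188 TPM in LECs (-2.95 ± 0.16, adjusted p = 1.28e-06). Tie1 differed by -0.71 ± 0.12 and Robo4 by -0.95 ± 0.16. The calls of Tek and Sox7 were lost without mouse 5 (adjusted p = 0.108 and 0.0512), and that of Tek also without mouse 11 (adjusted p = 0.1).

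**Figure D3:**
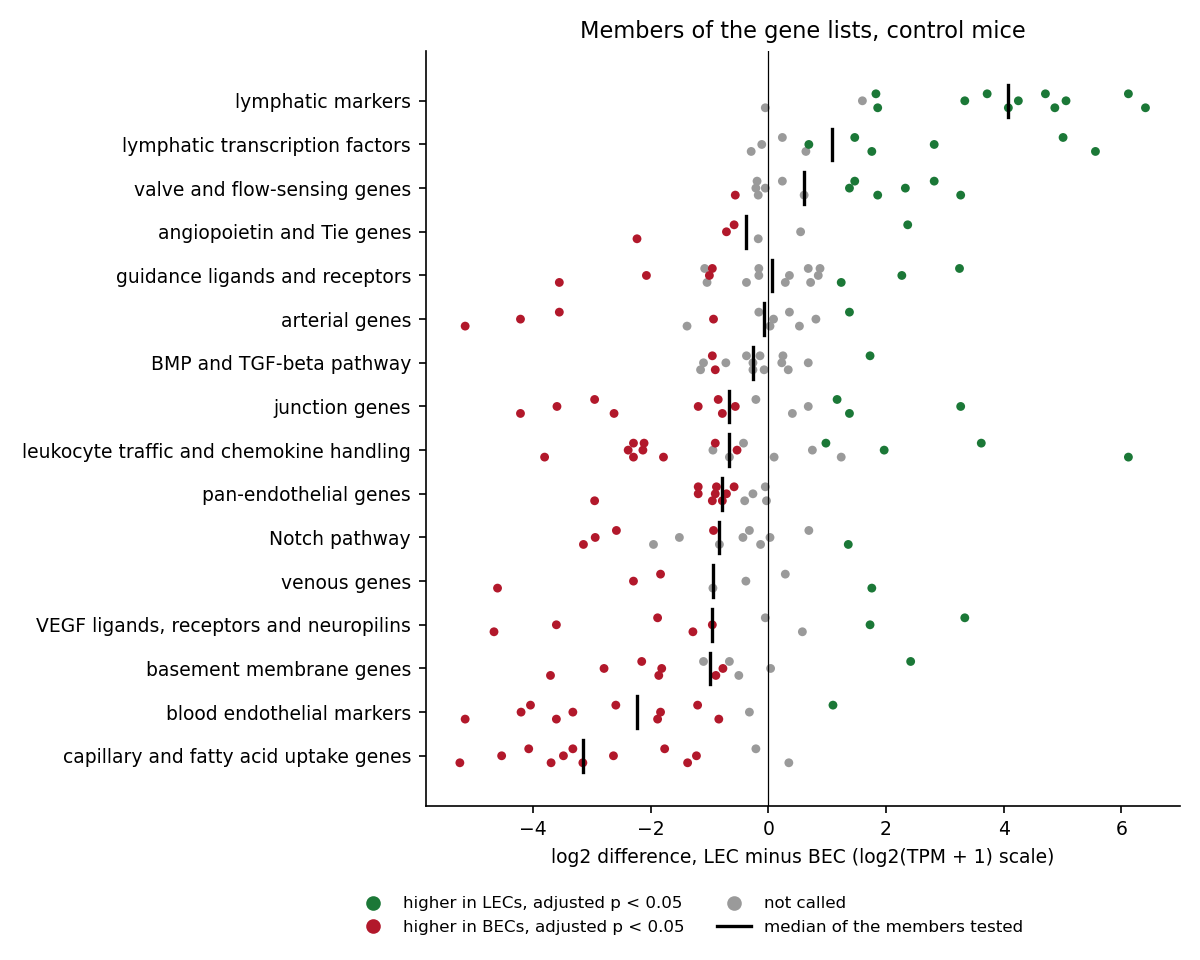
Log2 difference of LEC minus BEC on the log2(TPM + 1) scale for each tested member of 16 gene lists in control mice, with the median of each list (bar) and the genes that passed an adjusted p under 0.05 in colour. Lymphatic markers reached a median of 4.08 and capillary and fatty acid uptake genes one of -3.15, while junction, Notch and guidance genes held members on both sides.

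Ligands and receptors of the VEGF family were divided between the populations. Of 10 members, 9 were tested, 2 were called higher in LECs and 5 in BECs (4.24% and 6.4% over all genes). Vegfc, the lymphatic growth factor, was a transcript of the BECs. It was at 121, 91.5, 135 and 123 TPM in the BECs and 1.17, 2.35, 5.34 and 9.1 TPM in the LECs of mice 1, 5, 9 and 11 (log2 difference -4.66 ± 0.36, adjusted p = 1.25e-05). Its receptor gene Flt4 was at 273, 558, 386 and 498 TPM in the LECs and 25.4, 41.5, 47.8 and 49.9 TPM in the BECs (3.34 ± 0.17, adjusted p = 7e-07). Ligand and receptor were thus highest in opposite populations in each of the 4 mice. Kdr, which encodes VEGFR2, was present in both, at 526 to 889 TPM in BECs and 243 to 345 TPM in LECs (-1.28 ± 0.12). Flt1, which encodes VEGFR1, differed by -1.88 ± 0.17. The co-receptor gene Nrp1 was at 524 to 772 TPM in BECs and 32.0 to 102 TPM in LECs (-3.60 ± 0.29, adjusted p = 1.74e-05), whereas Nrp2 was not called, as described. The calls of Vegfa (-0.95 ± 0.27, adjusted p = 0.0483) and Vegfb (1.73 ± 0.38, adjusted p = 0.0128) were lost without mouse 5 (adjusted p = 0.263 and 0.0743) and without mouse 11 (adjusted p = 0.168 and 0.0525), and that of Vegfa also without mouse 1 (adjusted p = 0.0765). Without mouse 1, Pgf, which encodes placental growth factor, was called higher in LECs as well (1.48, adjusted p = 0.00127). Vegfd was under the filter on low values.

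Notch genes were called higher in BECs for 4 of 13 members and in LECs for 1, against 6.4% and 4.24% of all genes tested, so that the count in LECs is near the background. The ligands Dll4 and Jag2, the receptor Notch4 and the target Nrarp were the 4 higher in BECs, with log2 differences of -0.93 ± 0.16, -2.94 ± 0.39, -3.14 ± 0.47 and -2.58 ± 0.33. Dll4 was still at 97.4 to 147 TPM in LECs, against 204 to 339 TPM in BECs. The target Hes1 was the 1 higher in LECs, at 561, 1350, 470 and 1210 TPM against 393, 301, 317 and 265 TPM in the BECs (1.36 ± 0.27, adjusted p = 0.00837), with 0.54 within batch 1 and 2.18 within batch 2. Dtx1, a Deltex ubiquitin ligase gene of the Notch pathway that was not on the list, was among the 10 genes with the largest LEC excess, at 128 to 301 TPM against 1.66 to 3.79 TPM (5.79 ± 0.31).

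Genes named for arteries and veins did not follow one direction. Of 12 arterial genes, 4 were called higher in BECs and 1 in LECs (6.4% and 4.24% over all genes), the latter again near the background. The connexin genes parted: Gja5 was at 25.3 to 32.2 TPM in BECs and 0.0708 to 4.1 TPM in LECs (log2 difference -4.21 ± 0.52), whereas Gja4 was at 169, 258, 233 and 332 TPM in the LECs and 85.6, 79.6, 105 and 99.7 TPM in the BECs of mice 1, 5, 9 and 11 (1.38 ± 0.17, adjusted p = 0.000398). Every LEC value of Gja4 exceeded every BEC value. Sema3g, a semaphorin of arteries, differed by -3.55 ± 0.50. Without mouse 1, Fbln5 was called higher in LECs as well (0.78, adjusted p = 0.00823). Efnb2 was not called (0.36 ± 0.46, adjusted p = 0.708), and its direction differed between batches, with -0.94 in batch 1 and 1.66 in batch 2. Of 7 venous genes, 3 were called higher in BECs and 1, Nr2f2, in LECs (6.4% and 4.24% over all genes). Vcam1 was at 345 ± 112 TPM in BECs and 69.3 ± 22.4 TPM in LECs (SD, n = 4), and Aplnr, the apelin receptor, at 259 ± 59.3 and 12.9 ± 12.4 TPM (-4.60 ± 0.34).

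Genes of capillary fatty acid handling formed the list with the lowest median of those drawn (-3.15), with 11 of 13 members called higher in BECs and 0 in LECs (6.4% and 4.24% over all genes). Cardiac capillaries take up fatty acids for the muscle, and the lipid carrier gene Fabp4 was the most abundant of these transcripts. Fabp4 was at 8210, 9170, 12300 and 10600 TPM in the BECs and 1220, 448, 1590 and 731 TPM in the LECs of mice 1, 5, 9 and 11 (log2 difference -3.48 ± 0.22, adjusted p = 3.88e-06). Its LEC values were higher in the batch 1 mice, whose LECs also held red cell transcripts, and remained far below the BEC values. Fabp5 differed by -2.63 ± 0.13, and Gpihbp1, which anchors lipoprotein lipase to capillaries, by -1.22 ± 0.17 with 737 ± 131 TPM in LECs (SD, n = 4). Meox2 and Tcf15, factors that drive fatty acid uptake by heart capillaries, were at 99.6 ± 10.7 and 812 ± 229 TPM in BECs and at 11.0 ± 4.95 and 57.6 ± 45.3 TPM in LECs. The glycerol channel gene Aqp7 differed by -5.24 ± 0.38, the water channel gene Aqp1 by -1.76 ± 0.14, the carbonic anhydrase gene Car4 by -3.69 ± 0.37 and Rgcc by -4.53 ± 0.39. The call of Pparg (-1.37 ± 0.36, adjusted p = 0.0318) was lost without mouse 1 or mouse 9 (adjusted p = 0.103 and 0.118).

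Genes of leukocyte traffic split into separate sets. Of 20 members, 19 were tested, 4 were called higher in LECs and 9 in BECs (4.24% and 6.4% over all genes). Besides Ccl21a, the scavenging chemokine receptor gene Ackr2 was at 94.7, 169, 83.0 and 135 TPM in the LECs and 11.6, 9.03, 6.51 and 7.67 TPM in the BECs of mice 1, 5, 9 and 11 (log2 difference 3.62 ± 0.27, adjusted p = 9.67e-06). Ackr2 did not overlap between the populations. Ackr4, which scavenges Ccl21, and the sphingosine kinase gene Sphk1 were the other two called higher in LECs, and both calls were lost without mouse 5 (adjusted p = 0.0936 and 0.219), without mouse 9 (adjusted p = 0.134 and 0.126) and without mouse 11 (adjusted p = 0.094 and 0.0758), while that of Sphk1 was also lost without mouse 1 (adjusted p = 0.0628). The chemokine gene Cxcl12 was at 465 to 722 TPM in BECs and 30.3 to 61.5 TPM in LECs (-3.80 ± 0.22). The membrane chemokine gene Cx3cl1, the adhesion genes Vcam1 and Sele, the checkpoint ligand gene Cd274, the sphingosine 1-phosphate receptor gene S1pr1 and the lipid phosphatase gene Plpp3 were higher in BECs as well, with log2 differences of -2.29, -2.29, -2.13, -2.11, -0.90 and -1.78. The calls of Icam1 and S1pr3 were lost without mouse 1 (adjusted p = 0.0808 and 0.0751) and without mouse 5 (adjusted p = 0.216 and 0.0804), and that of Icam1 also without mouse 9 (adjusted p = 0.0558). The sphingosine 1-phosphate exporter gene Spns2, through which LECs supply lymph, was at 12.1, 129, 46.6 and 180 TPM in the LECs and 28.6, 25.7, 26.6 and 20.6 TPM in the BECs. It was not called in the 4 mice (adjusted p = 0.201) and was called without mouse 1 (2.05, adjusted p = 0.00759), as was the chemokine gene Ccl2 (1.66, adjusted p = 0.00941).

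Junction genes differed in both directions. Of 15 members, 14 were tested, 3 were called higher in LECs and 8 in BECs (4.24% and 6.4% over all genes). Those higher in LECs were the claudin genes Cldn5 (1580 ± 185 against 718 ± 202 TPM, SD, n = 4; log2 difference 1.17 ± 0.15) and Cldn11 (3.27 ± 0.52) and the connexin gene Gja4. Cldn11 was at 6.98 to 16.9 TPM in LECs and at 0.0801 TPM or less in BECs. The junctional adhesion genes Jam2 (-3.59 ± 0.22) and Jam3 (-2.62 ± 0.24) were higher in BECs together with Esam, Cdh5, Pecam1 and Gja5. The calls of Tjp1 (adjusted p = 0.0602, 0.147, 0.122 and 0.0806 without mouse 1, 5, 9 and 11) and Gja1 (adjusted p = 0.0559, 0.0826 and 0.0979 without mouse 5, 9 and 11) depended on single mice.

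Valve and flow-sensing genes were called higher in LECs for 6 of 13 tested members and in BECs for 1, Gja1 (4.24% and 6.4% over all genes). The 6 were Foxc2, Nfatc1, Gja4, Itga9, Cldn11 and Fn1, of which Fn1, which encodes the fibronectin bound by integrin alpha 9, was at 275 to 371 TPM in LECs and 51.2 to 84.2 TPM in BECs (2.33 ± 0.17). The flow-responsive factor Klf2 was not called (-0.21 ± 0.33, adjusted p = 0.769), and its direction differed between the batches. It was at 789, 3650, 1420 and 3360 TPM in the LECs and 2460, 2410, 2260 and 1830 TPM in the BECs of mice 1, 5, 9 and 11. Within batch 1 the log2 difference was -1.16 (adjusted p = 0.000517) and within batch 2 it was 0.74 (adjusted p = 0.0116), so the pooled value joins opposite ones. Each of these limma fits held 2 mice and was added after the data were seen. Their adjusted p lean on the spread of other genes and do not test a difference between batches. The same order of the LEC libraries, with mice 1 and 9 below mice 5 and 11, was seen in Tbx1, Foxc2, Hes1, Spns2 and Efnb2. It was not particular to them, since Lyve1, Flt4 and Ccl21a showed it too, while Il7 and Angpt2 did not. The summed lymphatic markers were at 24300 and 24700 TPM in the LECs of mice 1 and 9 and at 33900 and 31300 TPM in those of mice 5 and 11. All these genes were named for this after their values were seen. The batches held 2 mice each, and the LECs of batch 1 also held the red cell transcripts described above. The summed TPM of mitochondrial genome genes split the LEC libraries in the same way, at 32700 and 36300 in mice 1 and 9 and at 19000 and 16300 in mice 5 and 11, and it was 27000 to 42400 in BECs. The part of either in this order was not tested.

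**Figure D4:**
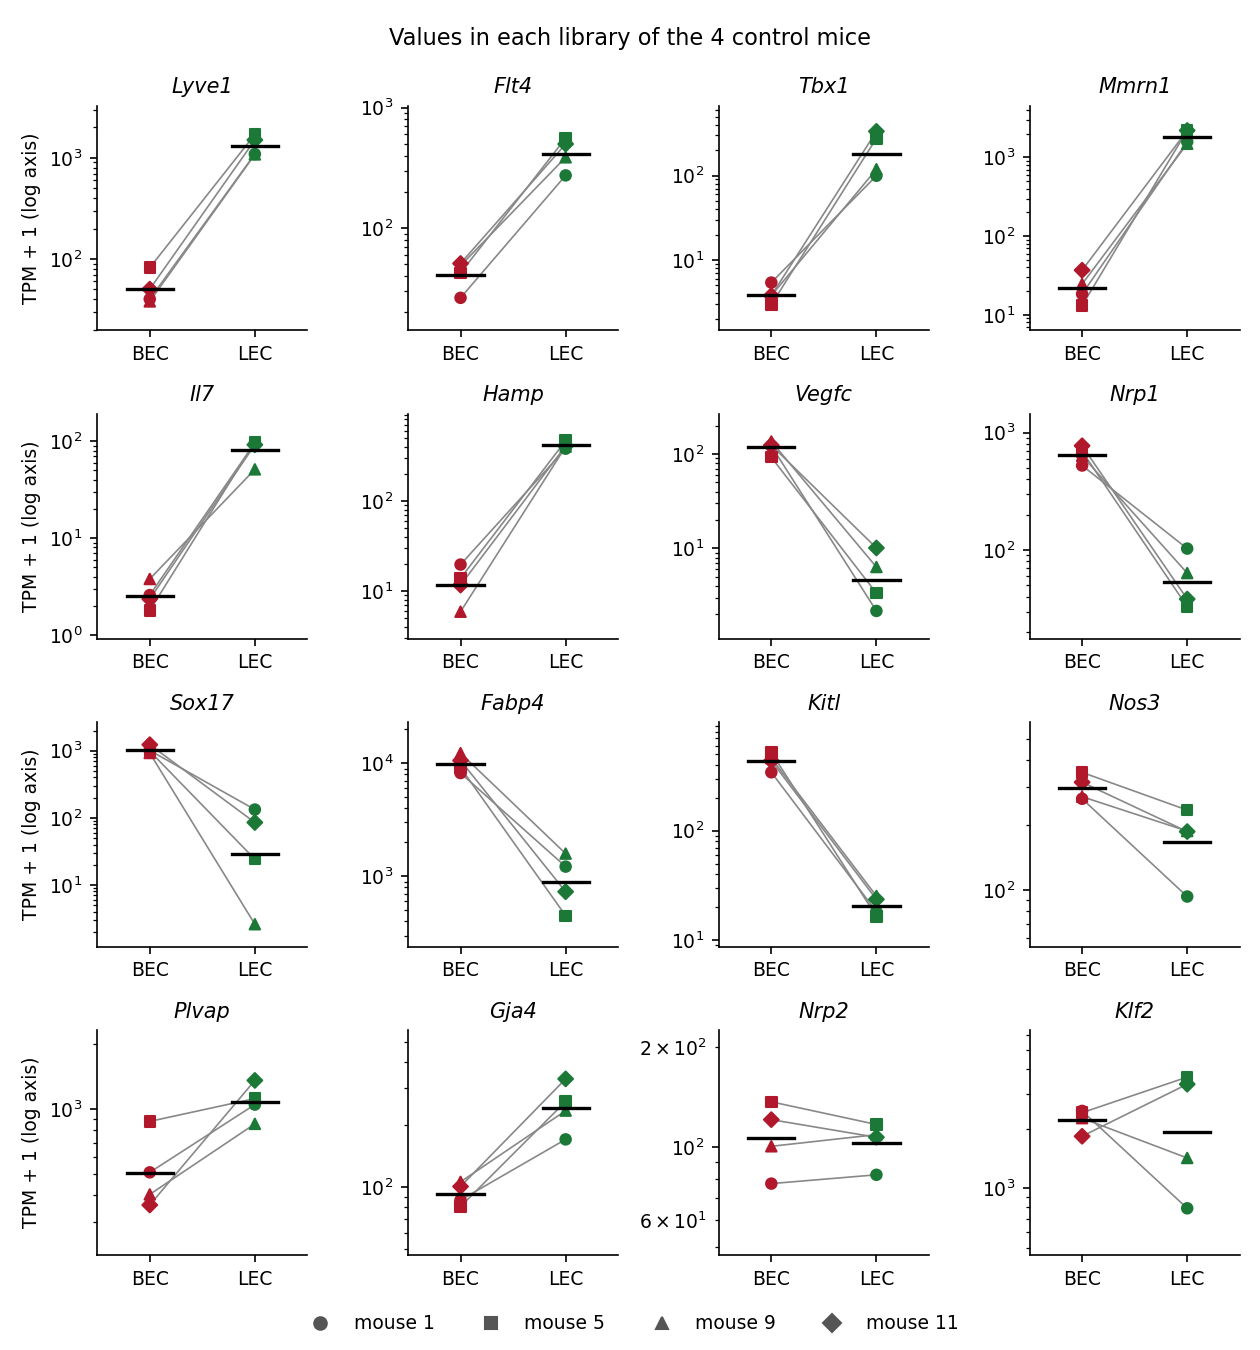
TPM + 1 on log axes of 16 genes in the BEC and LEC library of each control mouse (symbols joined by lines), with the geometric mean of each population (bar). Lyve1, Flt4, Tbx1, Mmrn1, Il7 and Hamp rose from BEC to LEC in each mouse, Vegfc, Nrp1, Sox17, Fabp4, Kitl and Nos3 fell, Plvap and Gja4 rose by less, and Nrp2 and Klf2 differed in direction between mice.

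Angiopoietin, TGF-beta and guidance genes showed single members with large differences. Angpt2, a Tie2 ligand needed for lymphatic remodelling, was at 135, 123, 76.4 and 104 TPM in the LECs and 17.7, 21.6, 16.8 and 24.4 TPM in the BECs of mice 1, 5, 9 and 11 (log2 difference 2.37 ± 0.22, adjusted p = 5.08e-05), while the phosphatase gene Ptprb, which restrains Tie2, was higher in BECs (-2.23 ± 0.16). Of 7 angiopoietin and Tie genes, 6 were tested, 1 was called higher in LECs and 3 in BECs (4.24% and 6.4% over all genes), Tie1 and Tek among the latter. Of 15 BMP and TGF-beta genes, 1 was called higher in LECs and 2 in BECs, counts that lie near the shares over all genes tested (4.24% and 6.4%) and say little about the list. The receptor gene Tgfbr2 was the 1 in LECs, at 313 to 462 TPM against 98.8 to 132 TPM (1.73 ± 0.14, adjusted p = 1.74e-05), and Acvrl1 (-0.90 ± 0.18) and Id1 (-0.95 ± 0.13) were those in BECs. Without mouse 1, Tgfbr3 was called higher in LECs as well (0.82, adjusted p = 0.0448). Of 18 guidance genes, 3 were called higher in LECs and 4 in BECs (4.24% and 6.4% over all genes). The semaphorin genes Sema3d (3.25 ± 0.28) and Sema3a (2.27 ± 0.31) were higher in LECs and the plexin gene Plxnd1 (-2.07 ± 0.24) in BECs. The calls of Sema3f and Plxna2 were lost without mouse 5 (adjusted p = 0.0783 and 0.209), and that of Plxna2 also without mouse 1 and mouse 11 (adjusted p = 0.0586 and 0.207).

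Basement membrane genes were called higher in BECs for 7 of 12 members and in LECs for 1 (6.4% and 4.24% over all genes). The collagen IV chains Col4a1 and Col4a2 were at 885 ± 229 and 543 ± 134 TPM in BECs and 248 ± 79.5 and 126 ± 44.8 TPM in LECs (SD, n = 4; log2 differences -1.86 ± 0.12 and -2.15 ± 0.15). Sparc, a matrix protein that binds collagen, differed by -2.79 ± 0.21, Col15a1 by -3.70 ± 0.51, the perlecan gene Hspg2 by -1.81 ± 0.26 and Nid1 by -0.89 ± 0.18. Col18a1, the source of endostatin, was the 1 higher in LECs, at 189 to 263 TPM against 32.2 to 58.7 TPM (2.42 ± 0.17, adjusted p = 6.16e-06). The call of Nid2 was lost without mouse 5 or mouse 11 (adjusted p = 0.108 and 0.0582). The fibroblast sum was highest in the BECs of mouse 1, and without mouse 1 the list held 7 members higher in BECs and 1 in LECs. The pericyte and smooth muscle sum was higher in the BECs of each mouse, though nearly equal in mouse 9 (395 TPM in BECs and 392 TPM in LECs). The part of transcripts of either kind of cell in these differences was not tested.

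The largest differences included genes outside vascular lists. The 10 with the largest LEC excess among called genes without overlap and with a mean of 10 TPM or more were Mmrn1, Lcn2, Ccl21a, Aqp8, Dtx1, Spp1, Tbx1, Coch, Duoxa2 and Hamp. Lcn2, an iron-siderophore binding protein gene, was at 563, 873, 841 and 865 TPM in the LECs and 9.83, 3.93, 11.4 and 13.3 TPM in the BECs of mice 1, 5, 9 and 11 (log2 difference 6.29 ± 0.27, adjusted p = 2.48e-07). Hamp, which encodes the iron hormone hepcidin, was at 378, 464, 399 and 406 TPM in the LECs and 18.6, 12.8, 4.87 and 10.6 TPM in the BECs (5.14 ± 0.26, adjusted p = 8.43e-07). Both were uniform across the LEC libraries in comparison with their gap to the BECs. Hamp lies at chr7:30942368-30944032 in GRCm38. Duoxa2, the maturation factor of the hydrogen peroxide producing oxidase Duox2, was at 42.7 to 84.4 TPM against 0.193 to 1.34 TPM (5.37 ± 0.42), and Duox2, looked up afterwards, at 13.5 to 50.7 TPM against 0.493 to 1.21 TPM (4.05 ± 0.50). Partner and oxidase were thus found in the same population. The aquaporin gene Aqp8 (5.93 ± 0.45), the matrix cytokine gene Spp1 (5.74 ± 0.39) and the cochlin gene Coch (5.54 ± 0.38) completed the group.

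The 10 genes with the largest BEC excess under the same rule were Slc26a10, Hbb-bs, Hba-a2, Slc28a2, Sybu, Aqp7, Ssu2, Nes, Sox17 and Adgrg1. The haemoglobin genes Hbb-bs and Hba-a2 are themselves members of the red cell list, and their log2 differences were -1.59 and -1.66 in batch 1 and -9.99 and -9.43 in batch 2. Slc28a2, a nucleoside transporter gene, was at 200 to 306 TPM in BECs and 2.2 to 9.41 TPM in LECs (-5.40 ± 0.30, adjusted p = 1.62e-06). Nes, which encodes the intermediate filament protein nestin, was at 76.2, 149, 107 and 120 TPM in the BECs and 4.37, 2.25, 0.744 and 1.71 TPM in the LECs of mice 1, 5, 9 and 11 (-5.20 ± 0.38, adjusted p = 9.67e-06). Neither overlapped between the populations. Slc26a10 (-6.29 ± 0.63), Sybu (-5.27 ± 0.47), Ssu2 (-5.22 ± 0.53) and the adhesion receptor gene Adgrg1 (-4.91 ± 0.45) were the others.

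Several secreted factors were looked up after their values were seen and are given as descriptions of the same contrast. Il7, the lymphocyte survival cytokine, was at 95.2, 97.3, 50.2 and 90.9 TPM in the LECs and 1.58, 0.789, 2.78 and 1.35 TPM in the BECs of mice 1, 5, 9 and 11 (log2 difference 5.01 ± 0.40). Kitl, the stem cell factor, was at 17.1, 15.4, 24.2 and 22.5 TPM in the LECs and 341, 518, 460 and 435 TPM in the BECs (-4.41 ± 0.19). The cytokines were thus in opposite populations. Apln, the ligand of Aplnr, was at 36.1 to 61.9 TPM in BECs and 0 to 5.81 TPM in LECs (-4.11 ± 0.49), so ligand and receptor were both BEC transcripts. The neuropeptide gene Nts (1180 ± 350 TPM in LECs, SD, n = 4), the glycoprotein gene Lrg1 (1980 ± 401 TPM), the lysophosphatidic acid producing enzyme gene Enpp2 (352 ± 67.2 TPM) and the matrix gene Postn (731 ± 51.6 TPM) were higher in LECs by 3.90, 4.19, 3.94 and 4.74 log2 units. The serotonin receptor gene Htr2b and the homeobox genes Hoxd8 and Hoxd9 were also higher in LECs (4.51 ± 0.32, 3.72 ± 0.49 and 4.76 ± 0.45).

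Genes of other cells and of tissue handling were called as well, beside 6.4% of all genes tested called higher in BECs and 4.24% in LECs. Of 8 pericyte and smooth muscle markers, 6 were called higher in BECs, Rgs5 (-2.59 ± 0.44) and Acta2 (-3.03 ± 0.73) among them, and without mouse 5 the list held 2 calls, with Acta2 lost (adjusted p = 0.0879; 0.0635 without mouse 1). Of 7 fibroblast markers, the receptor gene Pdgfra was called higher in LECs (2.26 ± 0.40), and Col1a2 (-2.38 ± 0.48) and Lum higher in BECs. Without mouse 1, Dcn was called higher in LECs as well (0.99, adjusted p = 0.0232), and without mouse 9, Col3a1 and Tcf21 were called higher in BECs (-2.42 and -3.04, adjusted p = 0.0131 and 0.0071). Col3a1 was also called without mouse 11 (-2.0, adjusted p = 0.0356) and in batch 1 and batch 2 alone (adjusted p = 0.0039 and 0.0169), and Tcf21 in batch 2 alone (adjusted p = 0.0242). Fits of 1 batch alone rest on 2 mice each. Of 4 platelet markers, 3 were called higher in BECs, Pf4 (-2.13 ± 0.29) among them, and so were the 5 red cell markers. Of 4 endocardial markers, 2 (Npr3 and Tmem108) were called higher in BECs and 1, Plvap, in LECs. Of 9 leukocyte markers tested, 0 were called by limma and 3 had an unadjusted p under 0.05, while C1qb was called higher in BECs without mouse 9 (-2.19, adjusted p = 0.0271) and in batch 2 alone (-2.09, adjusted p = 0.0341). Of 10 genes induced by tissue dissociation, 5 were called higher in BECs and 1, Junb, in LECs, with the heat shock gene Hspa1a at 4320 ± 1100 TPM in BECs and 1090 ± 250 TPM in LECs (SD, n = 4; -1.98 ± 0.10), and without mouse 1, 5 or 9 the list held 3 calls in BECs. The call of Junb (0.37 ± 0.10) was lost without mouse 5, 9 or 11 (adjusted p = 0.151, 0.201 and 0.147). These genes moved with the populations compared, and their part in the other differences was not tested.

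The contrast was then measured in the 8 treated mice, which share no library with the controls. There 6491 of 24004 genes tested (27.0%) were called, 3924 of them higher in LECs and 2567 higher in BECs. Of the 1956 genes called in control mice, 1949 were tested in treated mice, 1929 (99.0%) had the same direction there, 1783 were called in that direction and 1 was called in the opposite one. Lyve1, Flt4, Ccl21a and Mmrn1 had log2 differences of 5.07, 3.06, 6.44 and 7.27 in treated mice, against 4.71, 3.34, 6.12 and 6.41 in controls. Vegfc had -2.91 against -4.66, Gja5 -1.64 against -4.21 and Sox17 -3.54 against -5.15. For the 773 genes higher in LECs that were tested in both sets the median was 1.43 in treated and 1.68 in control mice, and for the 1176 higher in BECs it was -1.29 and -1.84. These genes were chosen on the control values, so that the gap between the medians carries no test. In a test of the difference between angII and control mice, 0 of 26884 genes (0.0%) passed an adjusted p under 0.05 in limma, 2655 had an unadjusted p under 0.05, and the smallest adjusted p was 0.0555. The median difference of angII minus control over all genes tested was 0.26, a shift toward LECs. It was not split by the direction of the contrast, and its cause was not tested. Without the replicate block 3 genes passed, and without mouse 1, 5, 9 or 11 the counts were 15, 3, 4 and 5, so the count of 0 rests on the full set of libraries and does not show that the contrast was the same. In the LECs of the angII mice the red cell sum was 2060 to 6530 TPM in both batches, and in those of the angII+VEGFC mice it was 12.2 to 575 TPM. The BEC transcript Fabp4 was at 1660 to 4910 TPM in the LECs of the angII mice. It was at 718 to 1160 TPM in those of the angII+VEGFC mice and at 448 to 1590 TPM in those of the controls. The part of such transcripts in the smaller differences of Vegfc, Gja5 and Sox17 was not tested.

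**Figure D5:**
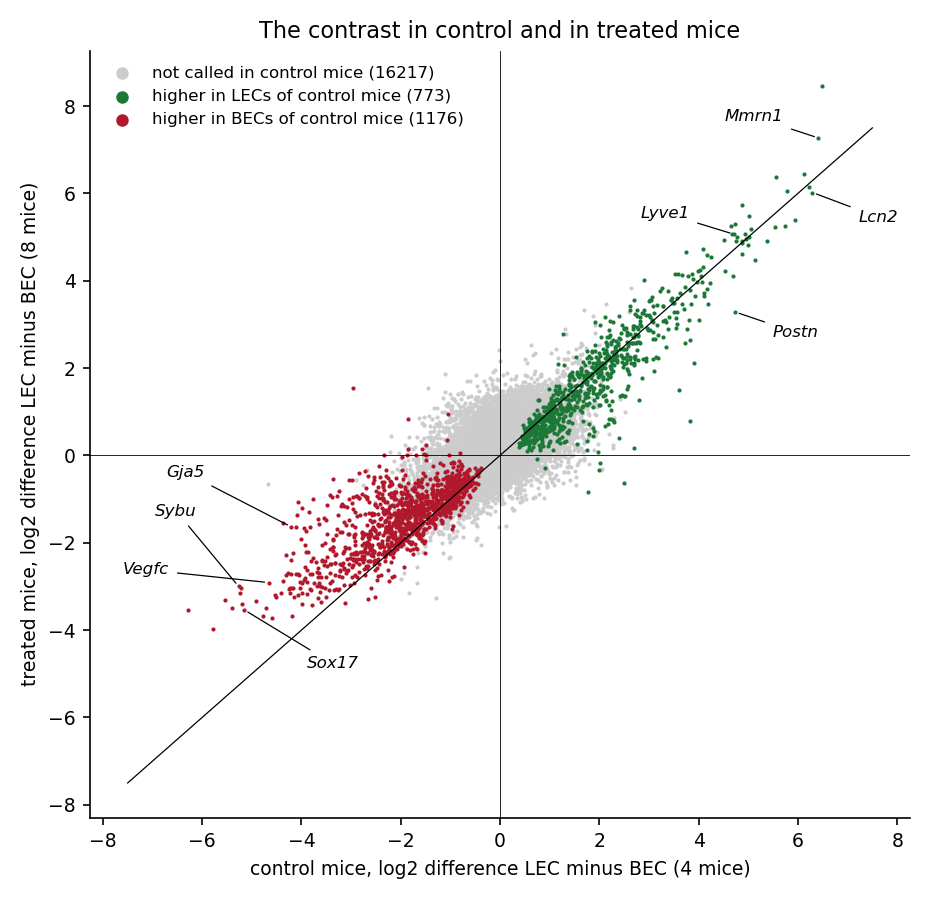
Log2 difference of LEC minus BEC for each gene in the 4 control mice (x) and in the 8 treated mice (y), with the line of equality, coloured by the call in control mice. Genes higher in LECs had a median of 1.68 in control and 1.43 in treated mice. Those higher in BECs had -1.84 and -1.29, with Vegfc at -4.66 and -2.91. Both sets were chosen on the control values.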

How the data were processed

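Total RNA of sorted cells was converted to cDNA with a low-input SMART-Seq kit and sequenced from Nextera XT libraries. The authors aligned the reads with STAR 2.5.3a to GRCm38 and estimated the abundance of Ensembl genes with Salmon 0.12.0 in alignment mode, and deposited 1 matrix of 54752 genes in TPM. Because TPM holds no read counts, depth is unknown, no counting error was given, and a count-based test (the authors used DESeq2 on counts, within cell types) was not used. Symbols and positions were matched by gene identifier to GENCODE M21 (GRCm38) for 54723 genes. The transcripts of the Ccl21a copies were aligned to Ccl21a over their full length with gaps allowed, and identity was counted over the bases aligned without a gap.

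Values were transformed to log2(TPM + 1). A gene was tested when 4 or more of the 8 libraries reached 1 TPM. The model was a limma fit (version 3.58.1, R 4.3.3) with a variance trend and the mouse as a fixed block, which also takes up age and batch. P-values were adjusted by Benjamini-Hochberg over the genes tested, with a threshold of 0.05. The code was tested on simulated data. The labels give the LEC and BEC libraries of an animal the same number. The deviations of a mouse's 2 libraries from their group means correlated with r = 0.339, -0.0133, 0.0249 and 0.169. The contrast was refitted in the 8 treated mice, and its difference between angII and control mice was tested over 24 libraries of 12 mice with the mouse as block. Sums of markers were compared by an exact sign-flip test, two-sided. The ages are those of the labels (8 to 16 months), which differ from the weeks in the methods.

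The members, gene lists and tests were chosen with earlier results of these data known. Genes named are the members of the lists, and in each direction the 10 with the largest difference among those called, without overlap, with a mean of at least 10 TPM in the higher population and with a gene symbol that is not a clone name. The others are given as chosen after their values were seen. Alternatives were another pseudocount, other filters, other models, quantile normalization, each mouse left out and, added after the data were seen, each batch alone. One item of the gene lists is not reported here.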

Additional observations from a re-analysis of the deposited data

Results flagged for a closer look

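In groups of 4 libraries, a library was singled out when its distance to the nearest other library, divided by the range of the group, passed the 95% critical value of Dixon's test, which chance gives in about 1 in 20 groups. This held for 25 of the 310 groups examined, all values in TPM, and no explanation was tested.

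In the LECs of mouse 1, Sox18 (330, others 659 to 686) and Lcn2 (563, others 841 to 873) were low, while Col15a1 (2.87), Sybu (1.37) and Ssu2 (5.27) were high against others at 0.873 or less. In the LECs of mouse 9, Acta2 (152), S1pr3 (30.1), Aqp7 (29.2), Cldn11 (16.9) and Jag2 (12.8) were high, and Gja1 (213, others 348 to 368) and Il7 (50.2, others 90.9 to 97.3) were low. In the LECs of mouse 5, Stab2 was high (14.6, others 2.09 to 2.69) and the fibroblast marker sum low (868, others 1320 to 1400). In the LECs of mouse 11, Gja5 (4.1, others 0.0708 to 0.267) and Spp1 (112, others 67.0 to 72.2) were high.

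In the BECs of mouse 1, the fibroblast marker sum (4050, others 554 to 969), Col1a2 (155, others 19.2 to 38.7), Pdgfra (37.5, others 5.78 to 9.22), Enpp2 (73.2, others 10.9 to 19.3), Fgl2 (82.5, others 24.4 to 31.4) and Pdpn (5.67, others 1.27 to 1.73) were high, and Cdh5 (110, others 175 to 188) and Ptprb (174, others 259 to 268) were low. In the BECs of mouse 5, Vegfa was high (55.1, others 33.3 to 35.0).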

How the results depend on the processing

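The count of 1956 genes was 1615 with a pseudocount of 0.1, 1845 with no replicate block (age and batch as covariates), 1898 after quantile normalization, 1438 with the number of genes at 1 TPM as covariate, 1664 with the mouse as random effect and 1860 with a filter at 5 TPM. It was 1157 with no filter on low values (43658 genes tested), 3079 when the control contrast was taken from the fit of 24 libraries, 468 against a log2 difference of 1, 1003 in the batch 1 mice alone and 2282 in the batch 2 mice alone, the last pair added after the data were seen. Leaving out each mouse gave 1202 to 1886. The difference between angII and control mice gave 3 genes with no replicate block and 3 to 15 without 1 control mouse, and 0 under the other alternatives run.

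Of 139 genes named with values, 83 kept direction and call under each alternative run. Without the paired block Vegfa, Icam1, Sphk1, Gja1, Acvrl1, Plxna2 and Junb lost their calls. Nos3 lost its call with no filter (adjusted p = 0.0638), with the number of genes as covariate (0.0557) and with the mouse as random effect (0.0515). Directions turned for genes that were not called. Nrp2 was at -0.11 to 0.01 without 1 mouse (highest without mouse 5) and 0.1 in batch 1, Efnb2 at -0.19 (without mouse 11) to 0.93 (without mouse 1) and -0.94 in batch 1, Spns2 at -0.2 in batch 1, and Klf2 at -0.57 (without mouse 11) to 0.27 (without mouse 1), 0.07 after quantile normalization and 0.74 in batch 2. The causes were not tested. With 4 mice and an unknown depth, differences of low genes are the least certain, and the log2(TPM + 1) scale understates them.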
